A study of Mus musculus with 3 samples.

Results

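The miR-23, miR-27 and miR-24 miRNAs are small regulatory RNAs encoded in 2 paralogous clusters of the mouse genome, and were measured here in serum from mice bearing mammary tumours of the 4T1 line. The members are the probes named miR-23a, miR-27a, miR-23b, miR-27b and miR-24, without starred arms, which makes 5 of the 566 probes on the serum table. The table gives a normalized signal, in arbitrary units, from the NanoString nCounter mouse miRNA panel, which counts fluorescent barcodes hybridised to each miRNA without amplification. The samples were 3 serum pools, called pool Tn+1, pool Tn+2 and pool Tn- below: 2 came from bearers of Tn+ tumours and 1 from bearers of Tn- tumours. Tn is the first sugar of an O-glycan, left bare on cell surface proteins where the chain stops there.

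The Tn+ line came from 4T1, a mouse line used as a model of triple-negative breast cancer, in which Cosmc, the chaperone needed for O-glycan extension, was targeted by CRISPR/Cas9 with guide and Cas9-GFP plasmids. Nothing in the labels says whether that line was 1 clone, or which 4T1 cells formed the Tn- tumours. In both groups female BALB/c mice aged 6 to 8 weeks received 100000 cells in the fourth right mammary fat pad, and day 28 was the end point. Serum was pooled by Tn status before RNA extraction, from groups of at least 8 mice. The labels do not give the mice in each pool or say whether both Tn+ pools hold serum of different animals, so any spread between pools may be technical. The panel measures miRNAs, and Cosmc was not measured.

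As background, a cluster of this family is transcribed as 1 primary RNA that is cut into separate hairpins, each of which yields a mature miRNA. A miRNA guides the silencing complex to transcripts that pair with its seed, bases 2 to 8. miR-23a is known for restraining the muscle ubiquitin ligases of atrophy, and miR-27a for restraining the adipocyte regulator PPARγ and, in human breast cancer cells, the transcriptional repressor ZBTB10. miR-24 is known for restraining the cell cycle factor E2F2 and the histone H2AX in human cells. In serum work miR-23a is also used as a reference that red cell lysis changes little, so that the ratio of the red cell miRNA miR-451 to miR-23a serves as an index of lysis.

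The mature sequences are shown because the members differ from each other in the seed or in single bases. They are RefSeq's 3p arms (GRCm38.p6), the arm that the older unstarred names denote. The probe sequences were not used here. The seed is in capitals, 5′ to 3′.
miR-23a-3p, chr8:84208563-84208583, plus strand: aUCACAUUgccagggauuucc
miR-27a-3p, chr8:84208727-84208747, plus strand: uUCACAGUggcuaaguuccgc
miR-27b-3p, chr13:63300760-63300780, plus strand: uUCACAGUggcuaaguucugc
miR-24-3p, chr8:84208875-84208896 and chr13:63301251-63301272, plus strand: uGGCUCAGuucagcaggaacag
The fifth member is miR-23b-3p, the paralogue of miR-23a, and it was not compared by sequence here. miR-27a-3p and miR-27b-3p share their seed and 20 of 21 bases, and differ by C19U, counted from 1 at the 5′ end with the base of miR-27a first. The seeds of miR-23a and miR-27a share a run of 5 bases, UCACA, and differ after it. miR-24 has an unrelated seed, and the same mature sequence is encoded in both clusters, so its probe cannot tell them apart. Of the 4 sequences shown, those of miR-27a and miR-27b are the ones with the same whole seed.

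The 3 hairpins of the chromosome 8 cluster (Mir23a, Mir27a and Mir24-2) span 404 bases, chr8:84208518-84208921 on the plus strand in GRCm38.p6. Mir23a and Mir27a are separated by 79 bases, and Mir27a and Mir24-2 by 56. They are shown because their products had unlike readings in the same pools, and the mature 3p arm is in capitals.
Mir23a: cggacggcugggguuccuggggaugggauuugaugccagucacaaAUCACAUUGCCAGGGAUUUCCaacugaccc
Mir27a: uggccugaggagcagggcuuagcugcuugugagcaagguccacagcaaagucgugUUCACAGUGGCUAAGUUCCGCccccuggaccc
Mir24-2: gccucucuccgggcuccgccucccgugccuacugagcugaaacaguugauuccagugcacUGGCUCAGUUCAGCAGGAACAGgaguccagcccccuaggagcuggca
The paralogous hairpins Mir23b, Mir27b and Mir24-1 span 792 bases on chromosome 13, with gaps of 154 and 423 bases.

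The pools differed widely in total signal, which bears on each value below. The summed signal was 14.1-fold higher in pool Tn+1 and 7.61-fold higher in pool Tn+2 than in pool Tn-. Each pool has a lowest value, here called the floor, of 1 to 1.09 units. At the floor lay 338 probes in pool Tn+1, 416 in pool Tn+2 and 481 in pool Tn-. Signal above the floor moved in steps of 0.895, 1.09 and 1.08 units, so low values are a few steps high. In pooled serum, more cells releasing a miRNA and more release per cell cannot be told apart.

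Both detected members, miR-23a and miR-27a, had far more signal in the Tn+ pools than in pool Tn-, while miR-23b, miR-27b and miR-24 were at the floor everywhere. miR-23a (MIMAT0000532) had 393 units in pool Tn+1, 199 in pool Tn+2 and 15.6 in pool Tn-. The Tn- value was the lowest by a wide margin, and pool Tn+1 was 1.98-fold above pool Tn+2. The signal of miR-23a was thus 25.2-fold and 12.7-fold higher in the Tn+ pools than in pool Tn-, with a Tn+ mean of 296 ± 137 units (SD, n = 2). In steps of the signal, miR-23a stood at 439, 183 and 14.5 steps, so the Tn- value is the least precise.

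miR-27a (MIMAT0000537) had 155 units in pool Tn+1, 127 in pool Tn+2 and 10.2 in pool Tn-. Its Tn+ pools lay close together, 1.22-fold apart, and both lay well above pool Tn-. The signal of miR-27a was 15.2-fold and 12.4-fold higher in the Tn+ pools, with a Tn+ mean of 141 ± 19.8 units (SD, n = 2). It stood at 173, 117 and 9.47 steps.

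**Figure D1:**
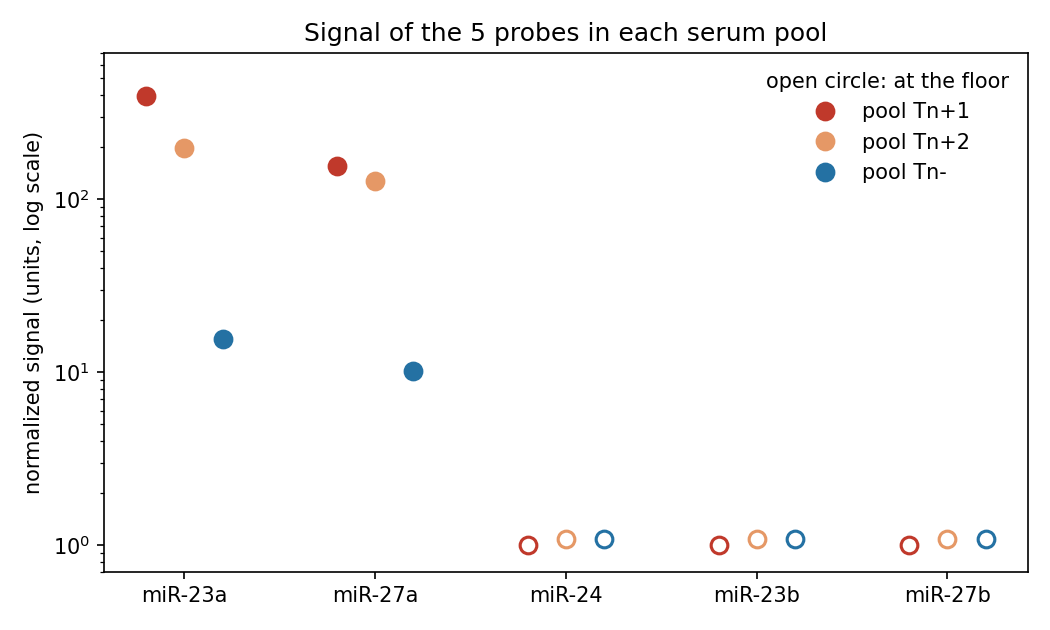
Normalized signal (units, log axis) of the 5 probes in each serum pool. Each point is 1 pool and open circles are values at the floor. miR-23a and miR-27a lie at 127 to 393 units in the Tn+ pools and at 10.2 to 15.6 in pool Tn-, and the other 3 probes are at the floor in all 3 pools.

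miR-24 (MIMAT0000219), which is encoded 56 bases from miR-27a, was at the floor in all 3 pools, at 1, 1.09 and 1.08 units. miR-23b (MIMAT0000125) and miR-27b (MIMAT0000126), the chromosome 13 paralogues, had the same 3 floor values. No fold change can be given for these 3 miRNAs. Against 3 signal steps, the signal of miR-23a was 146-fold higher in pool Tn+1, 60.9-fold in pool Tn+2 and 4.82-fold in pool Tn-. The corresponding values for miR-27a were 57.6-fold, 38.9-fold and 3.16-fold. These are no lower limits, because how background was handled, and the counting error it left, is unknown.

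A reading at the floor was common on this panel, since 54.2% of the 566 probes were at the floor in every pool, against 3 of the 5 members. Probes above the floor in every pool were 10.6% of all, and miR-23a and miR-27a belong to them. The miR-27b probe read the floor in pools with up to 155 units of miR-27a, which differs from it by 1 base. Shared signal between the paralogous probes was not tested beyond this reading. Probes also differ in how well they capture their target, so a level of 1 probe over that of another is no ratio of molecules.

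Unlike readings of neighbouring miRNAs were also seen elsewhere on the panel. Names of 443 probes matched a RefSeq mature miRNA, and 568 pairs of these were encoded within 10 kb of each other on 1 strand. Of the 64 pairs with a probe above the floor in every pool, 32 (50%) had the other probe at the floor in every pool, among them miR-23a with miR-24 and miR-24 with miR-27a. In 9 pairs, or 14.1%, both probes were above the floor in every pool, and miR-23a with miR-27a was 1 of these. Over all 566 probes, 54.2% were at the floor in every pool and 10.6% were above it in every pool. The shares of pairs lie near these, so they are not read as a trait of neighbouring miRNAs. Pairs share probes and loci, and this count was made after the values of the members were seen. In the 9 pairs the log2 ratios to pool Tn- differed by 0.11 to 3.28 in pool Tn+1 and by 0.04 to 2.68 in pool Tn+2. For miR-23a and miR-27a the difference was 0.73 and 0.04.

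The ratio of the cluster partners within a pool does not depend on a factor by which the whole pool was scaled. It does depend on any amount added or subtracted, and how background was handled is unknown. The signal of miR-27a over that of miR-23a was 0.394 in pool Tn+1, 0.638 in pool Tn+2 and 0.655 in pool Tn-. pool Tn+1 stood apart, whereas pool Tn+2 and pool Tn- had nearly the same ratio. Moving each signal by 1 step in opposite directions gave 0.391 to 0.397 in pool Tn+1, 0.630 to 0.648 in pool Tn+2 and 0.548 to 0.778 in pool Tn-. The Tn- range holds the value of pool Tn+2 and not that of pool Tn+1. A step is the grain of the signal and no measure of its error, so these ranges do not show which pools differ. In pool Tn- miR-23a and miR-27a stood at only 14.5 and 9.47 steps.

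On the log2 scale the mean ratio of miR-27a to miR-23a in Tn+ serum minus that in Tn- serum was -0.38, while the Tn+ pools differed by 0.70. The groups therefore differed by less than the Tn+ pools did (two-sided exact permutation test over the 3 pools, p = 0.667). With 2 pools against 1 this test cannot go below 0.333. The difference was -0.73 with pool Tn+1 alone and -0.04 with pool Tn+2 alone. With 4 units added to each signal and both Tn+ pools kept, it was -0.51.

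Ratios to miRNAs of other sources were set beside these, for pools of unlike total. The lysis index, miR-451 over miR-23a, was 110 in pool Tn+1, 66.2 in pool Tn+2 and 119 in pool Tn-. Pool Tn+2 stood apart at the low end. A step either way gave 111 to 128 in pool Tn-, which is no error range. With miR-23a at 14.5 steps there, pool Tn- cannot be told from pool Tn+1 by this index. miR-451 over miR-27a was 278, 104 and 182, with pool Tn- between the Tn+ pools.

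The other ratios were chosen after their values were seen and were not tested. miR-16, a red cell miRNA, stood over miR-23a at 6.64 and 7.58 in the Tn+ pools and 11.3 in pool Tn-, and over miR-27a at 16.9, 11.9 and 17.3. The ratio of miR-223, a myeloid and platelet miRNA, to miR-23a was 1.83 in pool Tn+1, 1.13 in pool Tn+2 and 8.75 in pool Tn-. Both Tn+ pools thus lay well below pool Tn-. Of the 9 ratios read, this one had the largest log2 difference between Tn+ and Tn- serum (-2.60, with 0.69 between the Tn+ pools). The ratio of miR-223 to miR-27a was 4.64, 1.77 and 13.4, with a wider gap between the Tn+ pools. miR-21, abundant in tumours and myeloid cells, stood over miR-27a at 1.17 in both Tn+ pools and at 0.366 in pool Tn-, where a step either way gave 0.235 to 0.527. The signals of miR-21 and miR-27a thus kept 1 ratio in the Tn+ pools, and miR-21 was lower relative to miR-27a in pool Tn-. Over miR-23a, miR-21 stood at 0.462 and 0.748 in the Tn+ pools and 0.239 in pool Tn-, so no such shared ratio was seen there.

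**Figure D2:**
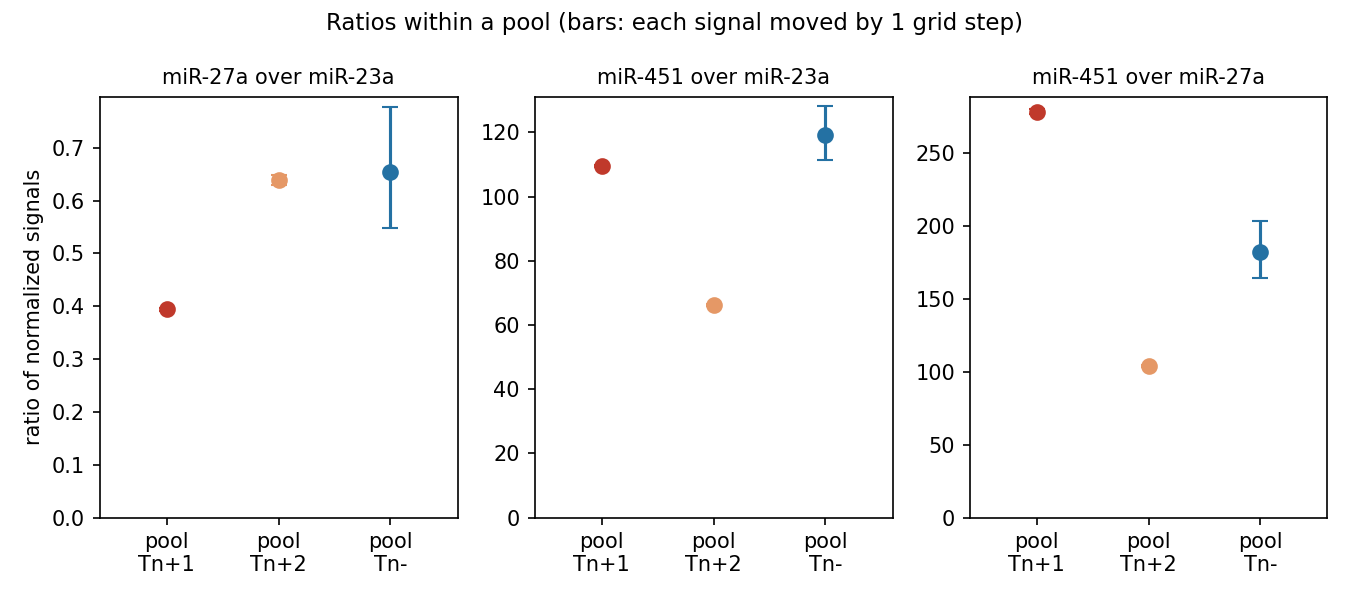
Ratio of normalized signals within each serum pool for 3 miRNA pairs. Points are pools and bars show the value when each signal is moved by 1 step in opposite directions, which is not an error range. miR-27a over miR-23a is 0.394 in pool Tn+1 against 0.638 and 0.655 in the others, and miR-451 over miR-23a is lowest, at 66.2, in pool Tn+2.

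The ratios of the detected members, miR-23a and miR-27a, lay above the median of the probes measured in every pool. The 60 probes above the floor in every pool had a median log2 ratio to pool Tn- of 1.58 in pool Tn+1 and 1.86 in pool Tn+2. The ratio of miR-23a was 4.66 and 3.67, rank 7 of 60 in both. That of miR-27a was 3.92 and 3.64, rank 13 and rank 8 of 60. Relative to the medians, miR-23a stood 3.08 and 1.81 above, and miR-27a 2.35 and 1.78 above, which is a description of these pools. Over all 566 probes, with those at the floor in pool Tn- included and on signal + 1, the mean log2 ratio ranked 11 for miR-23a and 21 for miR-27a.

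By size, both detected members exceeded pool Tn- by 2-fold or more in each Tn+ pool, on signal + 1. That rule was met by 12.0% of all probes, and by 46.7% of the 60 probes above the floor in every pool. In the opposite direction 0.707% of all probes met it, and no member did. For scale, 19.8% of all probes differed by at least 2-fold between the Tn+ pools.

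Neither detected member passed limma on log2(signal + 1) over all 566 probes, where no probe of the panel did (0% called at an adjusted p of 0.05, 63 probes at an unadjusted p under 0.05). For miR-23a the log2 ratio was 4.08 (SE 0.57, higher in 2 of 2 Tn+ pools, adjusted p = 0.260), and for miR-27a it was 3.66 (SE 0.22, higher in 2 of 2, adjusted p = 0.130). The unadjusted p was 0.0115 and 0.00161, and 9.89% of all probes were higher in Tn+ serum at an unadjusted p under 0.05. Restricted to the 259 probes that left the floor in some pool, limma called both, with adjusted p = 0.00999 for miR-23a and 0.0197 for miR-27a, among the 11.2% of these probes called higher. Restricted to the 58 probes with a mean of at least 10 units, it called both again (adjusted p = 0.0163 and 0.0237), where 55.2% were called higher. Over the alternatives tried, the adjusted p ranged from 2.11e-09 to 0.778 for miR-23a and from 1.01e-07 to 0.832 for miR-27a.

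Each probe has 1 residual degree of freedom, from the 2 Tn+ pools, and pool Tn- is assumed to vary like them. In each restricted fit limma pooled the spread over probes into 1 SE shared by all (1.15 and 1.34 on the log2 scale), so the largest ratios are the ones called. Those calls therefore rest on spread pooled over probes and not on added replicate pools.

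**Figure D3:**
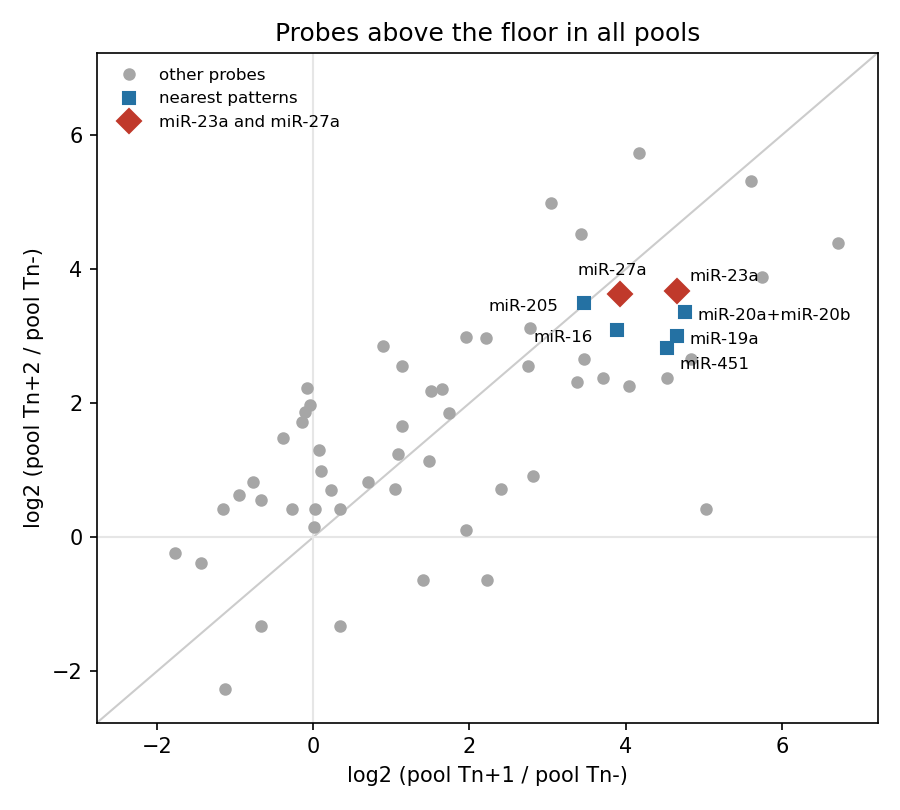
Log2 ratio of each Tn+ pool to pool Tn- on the deposited signal, for the 60 probes above the floor in every pool. The x axis is pool Tn+1, the y axis is pool Tn+2, and the diagonal marks equal ratios. miR-23a (4.66, 3.67) and miR-27a (3.92, 3.64) lie in the upper right, near miR-16, miR-205 and miR-20a+miR-20b.

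The size of the difference depended on how the pools were put on 1 scale. A median-of-ratios scaling on the 60 shared probes took away a 3.18-fold difference between Tn+ and Tn- serum. miR-23a was then 8.40-fold and 3.78-fold higher in the Tn+ pools, and miR-27a 5.05-fold and 3.68-fold. Scaling on the 100 highest probes (their geometric mean) took away a 5.85-fold difference and left 4.01-fold and 2.34-fold for miR-23a, and 2.41-fold and 2.28-fold for miR-27a.

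With equal totals, which removed a 10.4-fold difference, miR-23a was 1.78-fold and 1.68-fold higher, and miR-27a 1.07-fold and 1.63-fold. Put as shares of each pool's signal, miR-23a took 0.661% in pool Tn+1, 0.621% in pool Tn+2 and 0.371% in pool Tn-. miR-27a took 0.260%, 0.397% and 0.243%, so that pool Tn+1 and pool Tn- had almost the same share. In pool Tn+1 miR-451 alone made up 72.4% of the total, against 41.2% and 44.1% in the other pools. With totals counted without miR-451, the ratios were 3.61-fold and 1.59-fold for miR-23a, and 2.17-fold and 1.55-fold for miR-27a.

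miR-23a kept the higher side in both Tn+ pools under each of these 4 scalings. So did miR-27a, except that with equal totals its 10.9 units in pool Tn+1 against 10.2 in pool Tn- differ by less than 1 step of pool Tn- (1.08 units), so that no side can be read there. After the median-of-ratios scaling both still exceeded pool Tn- by 2-fold or more in each Tn+ pool on signal + 1, as did 5.3% of all probes. The same held after scaling by the 100 highest probes (2.83% of all probes), and neither member met that rule with equal totals, with miR-451 (1.06%) or without it (1.77%). No scaling gave an adjusted p under 0.05 for either member, over all probes or over the 58 with a mean of at least 10 units.

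**Figure D4:**
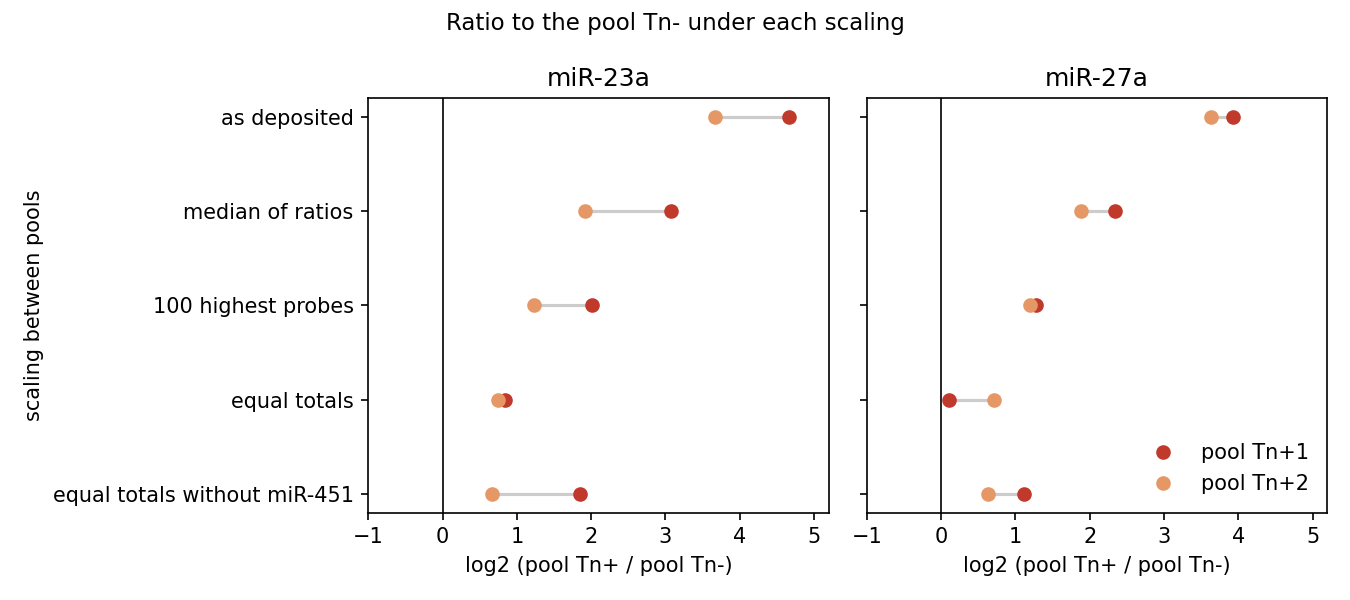
Log2 ratio of each Tn+ pool to pool Tn- for miR-23a and miR-27a, as deposited and under 4 scalings between pools. Each point is 1 Tn+ pool and the vertical line marks no difference. The ratios shrink from 3.64 to 4.66 as deposited to 0.10 to 0.83 with equal totals, where miR-27a in pool Tn+1 lies within 1 signal step of pool Tn-.

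In level, miR-23a ranked 11 and 12 of 566 in the Tn+ pools and 19 in pool Tn-, where it tied with miR-1944 and miR-378. Its next higher and lower probes were miR-144 (477 units) and miR-150 (318) in pool Tn+1, and miR-142-5p (201) and miR-2133 (192) in pool Tn+2. In pool Tn- they were miR-150 (24.2) and miR-465c-5p (13.4). miR-150, a lymphocyte miRNA, thus stood next to miR-23a in 2 pools, below it in 1 and above it in the other.

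miR-27a ranked 21 and 20 in the Tn+ pools and 25 in pool Tn-, where it tied with miR-101b, miR-199a-3p and miR-19b at 10.2 units. In pool Tn+1 it lay between miR-15a (167) and miR-2133 (130). In pool Tn+2 it lay between miR-1196 (128) and both miR-150 and miR-2135 (126), 1 step away on either side. In pool Tn- its neighbours were miR-130a (12.4) above and let-7g, miR-135a and miR-30a (9.12) below.

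The miRNAs with the pattern most like the members were found by distance between the pairs of log2 ratios to pool Tn-, over 2 ratios from 3 pools and 59 other probes. All of these ratios share pool Tn-. Nearest to miR-23a was the miR-20a+miR-20b probe, which names both miRNAs, at a distance of 0.33, followed by miR-19a (0.67), miR-27a (0.73), miR-451 (0.86) and miR-16 (0.96). Nearest to miR-27a was miR-205 (0.47), followed by miR-16 (0.54), miR-23a (0.73), miR-20a+miR-20b (0.89) and miR-19a (0.96). The cluster partners were therefore the third nearest to each other, and 2 probes of other loci were nearer to each. miR-205, an epithelial miRNA, had 29.4, 30.0 and 2.65 units, so its Tn- value lay within 3 steps of 0.

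Markers of cells that could release miRNAs into serum were read beside the members, and their part in the result was not tested. The 2-fold rule toward higher Tn+ signal was met by 12.0% of all probes and 46.7% of those above the floor in every pool, which is the measure for the counts that follow. Of 7 red cell miRNAs, all above the floor in some pool, 5 met it, and the summed signal of the 7 was 49289, 22627 and 2245 units. miR-23a over that sum was 0.00797, 0.00878 and 0.00694, the lowest value being that of pool Tn-. The rule was not met by miR-15b (226, 9.32 and 6.96 units) or miR-92a (7.05, 1.09 and 3.73 units). Of 5 platelet miRNAs, 3 met the rule, with sums of 836, 317 and 146 units, and pool Tn- held miR-126-3p, miR-191 and miR-425 at its floor. Those that did not were miR-223 (719, 225 and 136 units) and miR-199a-3p (7.94, 1.09 and 10.2 units). miR-199a-3p was thus highest in pool Tn-. miR-23a over the platelet sum was 0.470, 0.627 and 0.106.

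Of 5 myeloid miRNAs, 3 met the rule, with sums of 1080, 593 and 290 units, and miR-23a over that sum was 0.364, 0.335 and 0.0537. miR-142-3p and miR-146a were at the floor in pool Tn-. Neither miR-223 nor miR-142-5p (124, 201 and 150 units) met the rule. Of 6 lymphocyte miRNAs, 4 met it, with sums of 458, 153 and 24.2 units, and all but miR-150 were at the floor in pool Tn-. miR-155 was at the floor in every pool. miR-23a over the lymphocyte sum was 0.858, 1.30 and 0.644. Of 4 liver miRNAs, miR-122 and miR-148a met the rule, and every pool had miR-192 and miR-194 at its floor. The liver sums were 277, 73.0 and 8.04 units, and miR-23a over them was 1.42, 2.72 and 1.94. The ratio was thus lowest in pool Tn- for the platelet, myeloid and lymphocyte sums. For the red cell sum it was also lowest there, but near that of pool Tn+1 (0.00694 against 0.00797), with miR-23a at only 14.5 steps in pool Tn-. For the liver sum it lay between the Tn+ pools. These sums are not separate lines of evidence, because few probes dominate them. miR-451 gave 43043 of the 49289 red cell units in pool Tn+1. In pool Tn- miR-223, which is on both lists, gave 136 of the 146 platelet and 290 myeloid units. All 24.2 lymphocyte units there were those of miR-150.

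The endothelial list had only miR-126-3p and miR-126-5p above the floor, in the Tn+ pools, with sums of 48.1, 37.1 and 0 units counted above the floor. Its other 4 miRNAs, miR-221, miR-222, miR-10a and miR-10b, were at the floor in every pool. No muscle miRNA met the rule, miR-133b and miR-206 were at the floor in every pool, and the sums were 5.91, 3.88 and 3.16 units. miR-23a over these low muscle sums was 66.5, 51.2 and 4.93, also lowest in pool Tn-. Over all members of a list, floor values included, on signal + 1, the median of the mean log2 ratios was 3.68 for red cell, 3.23 for platelet, 2.33 for myeloid, 2.50 for lymphocyte and 1.79 for liver miRNAs. It was -0.02 for endothelial and muscle miRNAs and over all 566 probes, which is the value of a probe at the floor in every pool.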

How the data were processed

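Per the labels, RNA from 200 µL of serum was eluted in 20 µL, and about 30 ng was hybridised for 16.5 h with barcodes for 527 mouse miRNAs. Each value the authors deposited is a normalized signal for 1 probe in 1 pool. Per the labels and design text it came from the nCounter Advanced Analysis Software, and the submitters' processing notes name R 4.4. How probes were scaled, background removed and the floor set is not given in the sources used here. A second deposited table held the same signal (1698 of 1698 values equal).

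Log2(signal + 1) was fitted with limma 3.58.1 in R 4.3.3 (lmFit, eBayes), all 566 probes and 3 pools, no covariate, two-sided, Benjamini-Hochberg over all probes at 0.05. The script was tested on simulated data. Where pools were scaled, floor values, and other values that fell below 1.08 units, were set to 1.08 units afterwards. Ratios use the deposited signal. List sums count floor values as 0. Depth in counts is unknown, so no counting interval is given. Python 3.11.15 with numpy 2.4.6, pandas 2.3.3 and matplotlib 3.10.9 was used for the rest.

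Named miRNAs were the members, probes sharing a seed, the 5 nearest patterns, level neighbours, and marker list members. Members and lists were chosen with earlier results of these data known. Alternatives were pseudocount, filter, scaling, floor, table and leaving out a Tn+ pool.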

Additional observations from a re-analysis of the deposited data

How the results depend on the processing

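The log2 ratios of miR-23a and miR-27a stayed above 0 under all 14 alternative fits. Filters, a floor at 3 steps and the second table left these ratios unchanged, so only the pseudocounts and scalings bear on this. With either Tn+ pool left out the ratios ranged from 3.59 to 4.57 for miR-23a and from 3.51 to 3.80 for miR-27a. In 3 alternatives both passed an adjusted p of 0.05 in limma. These were the fits on probes that left the floor in some pool, on probes with a mean of at least 10 units, and on values under 3 signal steps set to 3 steps, each with log2 ratios of 4.08 and 3.66. Every probe then had 1 shared SE.

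The number of probes called by limma was 0 in the fit reported, 29 and 32 with these filters and 42 at 3 steps. It was 17, 28, 35 and 32 over all probes after scaling by the median of ratios, the 100 highest probes, equal totals and equal totals without miR-451. All of those were lower in Tn+ serum and had equal values in both Tn+ pools, so their SE holds no spread. The same scalings with a mean of at least 10 units, chosen after seeing the data, gave 0, 3, 5 and 1.

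Probes that exceeded pool Tn- by 2-fold or more in each Tn+ pool numbered 68, against 44 with a mean of at least 10 units, and 30, 16, 6 and 10 after the scalings, with or without that filter. With 1 Tn+ pool alone there were 96 to 120. Probes at least 2-fold lower numbered 4, against 0 with a pseudocount of 4 units or a mean of at least 10, 1 at 3 steps, 15, 26, 29 and 27 after the scalings, and 5, 10, 12 and 11 after the scalings with that filter. With 1 Tn+ pool alone there were 7 to 12.

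With either Tn+ pool left out, the log2 difference of miR-27a over miR-23a ranged from -0.73 to -0.04 and that of miR-451 over miR-23a from -0.85 to -0.12. No paired analysis was made because the labels match neither Tn+ pool to pool Tn-. Pool Tn- has no replicate, and its members' values of 9.47 and 14.5 steps limit each ratio.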
